A study of Mus musculus with 8 samples.

Results

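Carboxylesterases are serine hydrolases that liver makes in large amounts, and 10 carboxylesterase genes were followed here: Ces1b, Ces1c, Ces1d, Ces1e, Ces1f, Ces1g, Ces2a, Ces2e, Ces3a and Ces3b. They were chosen by name from the 20 carboxylesterase genes and pseudogenes that the GENCODE annotation lists, and each gene was counted as the sum of its transcripts. All 10 passed the filter on low counts, as did 12883 of the 35975 genes in the data. The RNA came from livers of C57BL/6 mice (C57BL/6J in the study's methods) with a catheter in the portal vein, through which an osmotic pump delivered either Normal Saline (4 mice) or 4-HPAA (4 mice) for 2 weeks. 4-HPAA (4-hydroxyphenylacetic acid) is a small aromatic acid released when bacteria of the gut break down tyrosine and plant polyphenols, and it was dissolved in the same saline that the control mice received. All 8 mice therefore shared the surgery, the catheter and the vehicle. Age and sex were not given in the labels. The study's methods state that mice of both sexes were bought at 8 to 10 weeks of age. Y-linked genes were expressed in all 8 livers here, as in males. A library held the RNA of a whole piece of liver, so fewer cells of a type and less RNA per cell cannot be told apart.

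The enzymes of this family cut ester and amide bonds. In hepatocytes most of them sit inside the endoplasmic reticulum, where they cleave ester drugs and toxins and release fatty acids from stored triglyceride before lipoproteins are assembled, and some members are secreted into plasma. The active site holds a serine within a short glycine-rich stretch, and a tail of the form His-X-Glu-Leu keeps a member in the endoplasmic reticulum. The comparison addressed whether the amounts of these messenger RNAs differed between livers that received the microbial metabolite and livers that received its vehicle.

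All of the genes lie on chromosome 8 of GRCm38, in tandem clusters. The 6 Ces1 members are on the minus strand, in a cluster of 9 family genes between positions 93020214 and 93535830. The Ces2 and Ces3 members are on the plus strand, in a cluster of 11 family genes between 104734003 and 105150109. Because reads are shared out among transcripts by their sequence, the members are shown first as sequence. In the most abundant full coding transcript of each member, the serine codon was codon 221 to 232 of 554 to 571, and in all 10 it fell in exon 5. The lines below give 45 coding bases around it, 5′ to 3′ on the coding strand, with the 5 codons of the motif glycine, any residue, serine, any residue, glycine in capitals.
Ces1b: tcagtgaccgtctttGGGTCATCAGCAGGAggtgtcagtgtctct
Ces1c: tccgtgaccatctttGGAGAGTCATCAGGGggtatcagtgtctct
Ces1d: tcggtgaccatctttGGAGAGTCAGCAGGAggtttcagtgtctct
Ces1e: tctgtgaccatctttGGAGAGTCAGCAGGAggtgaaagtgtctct
Ces1f: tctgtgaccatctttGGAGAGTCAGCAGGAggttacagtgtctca
Ces1g: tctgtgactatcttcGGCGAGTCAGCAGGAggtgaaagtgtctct
Ces2a: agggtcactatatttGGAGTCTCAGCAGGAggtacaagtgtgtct
Ces2e: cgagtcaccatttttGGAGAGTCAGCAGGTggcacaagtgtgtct
Ces3a: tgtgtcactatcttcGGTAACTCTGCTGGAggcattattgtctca
Ces3b: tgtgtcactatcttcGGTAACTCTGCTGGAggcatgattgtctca

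The 5 codons had 7 distinct spellings among the 10 members. In 6 members the codon before the serine read as glutamate, the residue usual in this family, and in Ces1b, Ces2a, Ces3a and Ces3b it did not. Ces3a and Ces3b were spelled alike here, and Ces1d, Ces1e and Ces1f were spelled alike. The coding strand ended as follows, with the last 4 codons before the stop in capitals.
Ces1b: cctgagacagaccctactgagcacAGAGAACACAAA
Ces1c: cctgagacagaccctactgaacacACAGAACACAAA
Ces1d: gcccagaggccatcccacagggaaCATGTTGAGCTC
Ces1e: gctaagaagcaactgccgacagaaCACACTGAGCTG
Ces1f: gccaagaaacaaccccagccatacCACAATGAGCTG
Ces1g: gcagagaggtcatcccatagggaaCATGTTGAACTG
Ces2a: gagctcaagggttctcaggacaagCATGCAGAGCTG
Ces2e: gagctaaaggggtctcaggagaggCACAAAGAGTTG
Ces3a: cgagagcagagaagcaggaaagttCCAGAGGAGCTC
Ces3b: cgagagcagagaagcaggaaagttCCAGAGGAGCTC

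These codons read as a His-X-Glu-Leu tail in 6 members (Ces1d, Ces1e, Ces1f, Ces1g, Ces2a and Ces2e). The tails of Ces1b, Ces1c, Ces3a and Ces3b had another form. Ces1c encodes the abundant plasma esterase of mice. The closest coding sequences were those of Ces3a and Ces3b (95.3% identical), followed by Ces1b and Ces1c (88.7%), Ces2a and Ces2e (83.3%), and Ces1d and Ces1g (81.6%).

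How much of a member can be counted apart from its relatives depends on its words of 31 bases, the unit by which kallisto assigns reads. Ces3a shared 34.9% of its words with Ces3b, and Ces3b shared 35.7% of its words with Ces3a. Ces1b shared 23.1% of its words with other family genes, mostly with Ces1c. The share for Ces1c was 20.6%. Ces1d, Ces1e, Ces1f, Ces1g, Ces2a and Ces2e shared between 2.81% and 8.09% with the family. Ces2a also shared 26.9% of its words with genes outside the family, chiefly Gm7208. Counting all shared words, the shares were highest for Ces3b (35.7%), Ces3a (34.9%), Ces2a (30.2%), Ces1b (23.9%) and Ces1c (23.3%), and the counts of these 5 members are the least certain by this measure. The sum of Ces3a and Ces3b is given as well.

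Expressed per transcript length, the members differed widely in level, and their order was similar in the 8 livers. Levels per length are estimated counts divided by transcript length and scaled to the same sum in every library, as in TPM, and they are given as the mean ± SD over all 8 livers without a test. Ces1c was highest at 2302 ± 199 TPM, which placed it 58th by level among all genes and gave it 36.7% of the members' sum. Ces3a followed at 1543 ± 195 TPM. Ces1d, which encodes the triacylglycerol hydrolase of liver microsomes, stood at 836 ± 97.7 TPM. For each of these 3 genes the 8 values lay apart from those of the next gene in the order.

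Ces3b (450 ± 80.2 TPM) and Ces1f (397 ± 24.7 TPM) came next and overlapped, with Ces3b the higher in 5 of 8 livers. Ces2a, whose enzyme hydrolyses acylglycerols and drugs, had 307 ± 25.2 TPM and lay apart from both neighbours. Among the remaining members, neighbours in the order overlapped in their ranges. Ces1g had 130 ± 24.9 TPM and Ces1e, the egasyn that anchors β-glucuronidase in the endoplasmic reticulum, had 125 ± 13.0 TPM, and each was the higher in 4 livers. Ces2e had 102 ± 16.9 TPM and Ces1b had 79.8 ± 14.3 TPM.

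**Figure D1:**
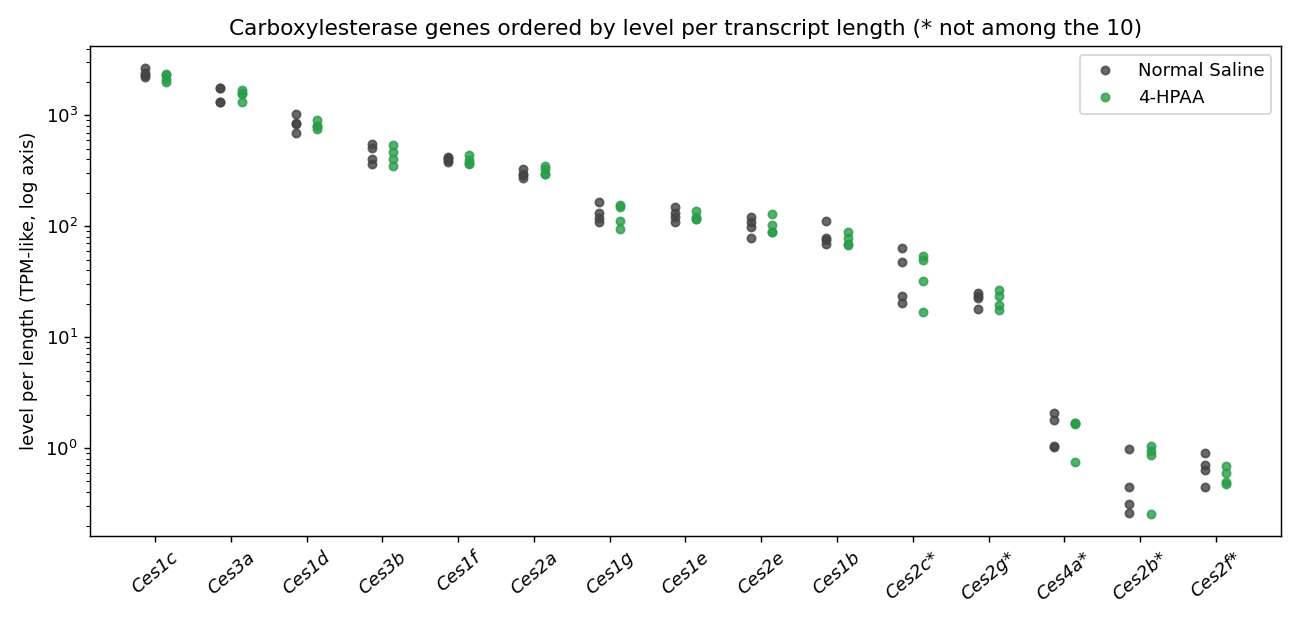
Level per transcript length (TPM-like, logarithmic axis) of the 15 carboxylesterase genes that passed the filter, ordered by their mean, with a point for each of 4 Normal Saline and 4 4-HPAA livers and a star at genes outside the 10. The values run from about 2302 TPM for Ces1c to 79.8 TPM for Ces1b among the 10, and the ranges of both infusions overlap in every gene.

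Summed by subfamily, the Ces1 members held between 58.0% and 68.0% of the members' TPM in a liver, the Ces3 members between 26.0% and 35.8%, and the Ces2 members between 5.93% and 7.26%. The Ces1 sum was 4006 ± 305 TPM with Normal Saline and 3735 ± 195 TPM after 4-HPAA infusion (SD, n = 4 each). The Ces3 sum was 2000 ± 333 TPM with Normal Saline and 1986 ± 247 TPM with 4-HPAA, so its uncertain split between Ces3a and Ces3b does not enter. The Ces2 sum was 398 ± 8.19 TPM and 419 ± 25.4 TPM. The ranges of the infusions overlapped in all 3 sums. Together the 10 genes took between 0.662% and 0.747% of all estimated counts of a library.

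No carboxylesterase gene passed the test between 4-HPAA and Normal Saline. The 10 members were part of a quasi-likelihood fit of all 12883 genes in edgeR, and their values are given as CPM, counts scaled to the library's size after TMM normalization. After Benjamini-Hochberg adjustment over all genes, 0 of 10 members passed 0.05, beside 0 of 12883 genes (0%). The adjusted p was 1.00 for every member. At an unadjusted p under 0.05 the counts were 0 of 10 members and 225 genes (1.75%). DESeq2 called 0 members and 2 genes, and limma-voom called 0 members and 0 genes. In no member did the CPM of the groups lie apart, against 154 genes (1.2%). The estimate was above 0 for 2 members and below 0 for 8, beside 50.4% of all genes above 0, and the median log2 fold change was -0.03 over the members and 0.00071 over all genes. With single livers left out, 2 to 5 members were above 0, and the count was 5 without Normal Saline replicate 3, 4-HPAA replicate 3 or 4-HPAA replicate 4.

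The estimates ran from -0.12 (Ces1b) to 0.11 (Ces2a) on the log2 scale, with standard errors of 0.097 to 0.18. The 95% confidence intervals of the members together spanned 0.716-fold, the lower bound of Ces1b, to 1.30-fold, the upper bound of Ces1g, and the narrowest, that of Ces1f, ran from 0.840-fold to 1.13-fold. The median within-group SD of log2 CPM was 0.17 over the members and 0.18 over all genes.

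**Figure D2:**
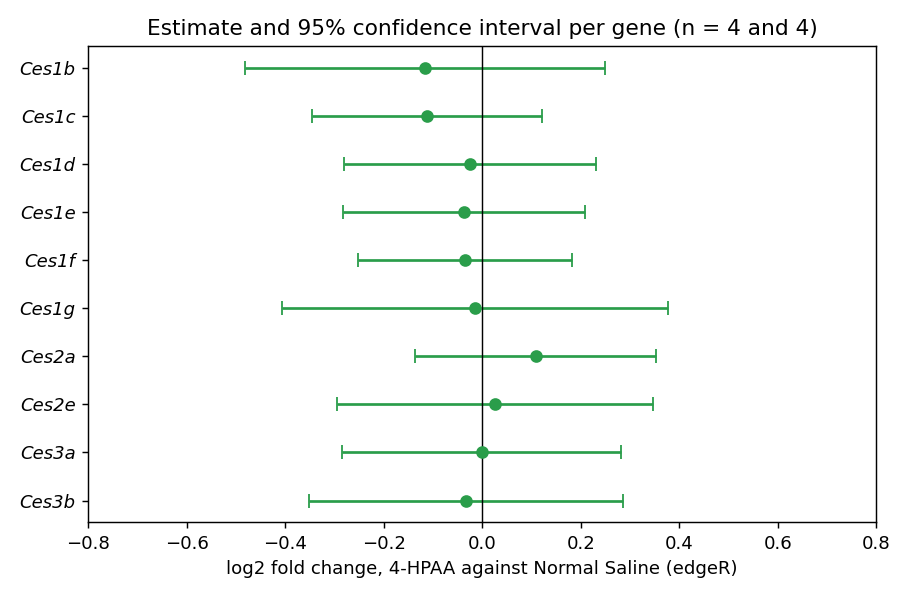
Log2 fold change of each member, 4-HPAA against Normal Saline (horizontal axis), as the edgeR estimate with its 95% confidence interval (n = 4 and 4). Every interval crosses 0, and the widest is that of Ces1g, from -0.41 to 0.38.

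The genes that encode lipid-hydrolysing Ces1 enzymes are given first. Ces1d had 1118, 814, 950 and 963 CPM in the 4 Normal Saline livers and 960, 825, 1024 and 970 CPM in the 4 4-HPAA livers, in the order of their replicate numbers. The lowest and the highest liver were both in the Normal Saline group, and the 4-HPAA values lay between them. The log2 fold change was -0.03 (SE 0.11, 95% interval -0.28 to 0.23). Ces1g had 184, 179, 239 and 163 CPM with Normal Saline. With 4-HPAA it had 239, 214, 160 and 143 CPM. It had the widest within-group spread of the members (SD of log2 CPM 0.30), with the highest and the lowest liver both in the 4-HPAA group, and the log2 fold change was -0.01 (SE 0.18, 95% interval -0.41 to 0.38). Ces1f had the smallest range of the members (1.27-fold over the 8 livers), with 417, 481, 439 and 477 CPM against 440, 419, 401 and 510 CPM and a log2 fold change of -0.04 (SE 0.097, 95% interval -0.25 to 0.18).

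Ces1c, the plasma esterase, had 2848, 2646, 2459 and 2736 CPM with Normal Saline. With 4-HPAA it had 2744, 2148, 2529 and 2470 CPM. Its mean was lower with 4-HPAA, at 2473 ± 246 against 2672 ± 164 CPM (SD, n = 4), but 3 of the 4 4-HPAA values lay within the range of the Normal Saline values, and the log2 fold change was -0.11 (SE 0.10, 95% interval -0.35 to 0.12). Ces1b had 90.4, 84.9, 89.9 and 135 CPM with Normal Saline and 98.6, 80.6, 80.1 and 110 CPM with 4-HPAA. Replicate 4 was the highest in both groups, and in the Normal Saline group it stood far above the other livers. The log2 fold change was -0.12 (SE 0.16, 95% interval -0.48 to 0.25) with all livers and 0.06 without Normal Saline replicate 4. Ces1e had 170, 129, 137 and 154 CPM against 142, 134, 132 and 167 CPM, with a log2 fold change of -0.04 (SE 0.11, 95% interval -0.28 to 0.21).

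The Ces2 members were those with estimates above 0. Ces2a had 304, 357, 343 and 397 CPM with Normal Saline and 427, 340, 343 and 400 CPM with 4-HPAA. The lowest liver was a Normal Saline liver and the highest a 4-HPAA liver, with the others mixed between them, and the log2 fold change was 0.11 (SE 0.11, 95% interval -0.14 to 0.35). Ces2e had 147, 128, 136 and 99.8 CPM with Normal Saline. With 4-HPAA it had 136, 158, 110 and 116 CPM, and the log2 fold change was 0.03 (SE 0.14, 95% interval -0.29 to 0.35). Its direction was not stable, since the estimate was -0.07 without Normal Saline replicate 4 and -0.08 without 4-HPAA replicate 2.

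The estimate was close to 0 for Ces3a and below 0 for Ces3b. Ces3a had 1507, 2031, 2021 and 1579 CPM with Normal Saline and 1943, 1759, 1840 and 1587 CPM with 4-HPAA, for a log2 fold change of 0.00 (SE 0.13, 95% interval -0.29 to 0.28). Ces3b had 467, 689, 627 and 541 CPM with Normal Saline. With 4-HPAA it had 628, 508, 648 and 487 CPM, for a log2 fold change of -0.03 (SE 0.14, 95% interval -0.35 to 0.29). In both genes the livers of a group differed more than the groups did, and Normal Saline replicates 1 and 4 and 4-HPAA replicate 4 were the 3 lowest livers for Ces3a.

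**Figure D3:**
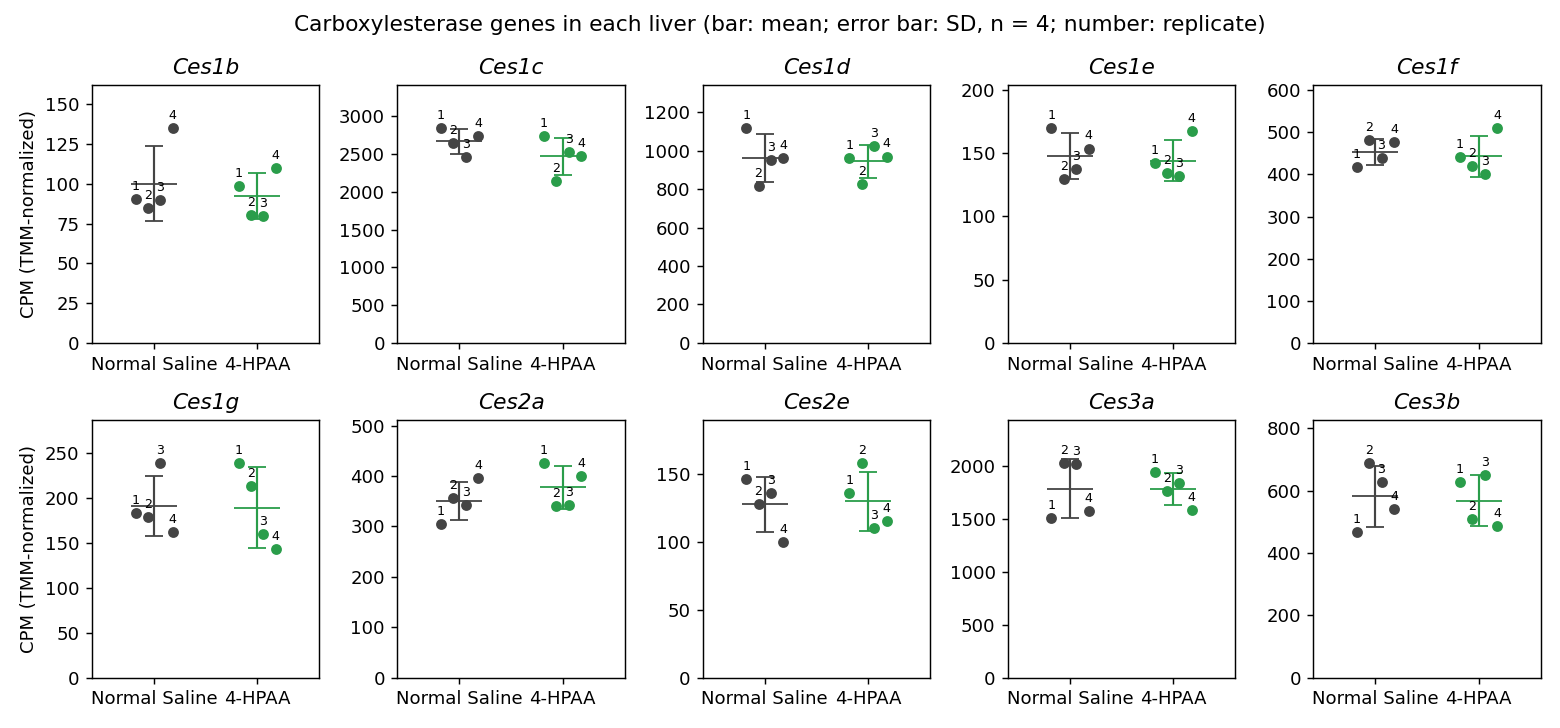
CPM of each of the 10 members (vertical axis, from 0) in 4 Normal Saline and 4 4-HPAA livers, with a numbered point per replicate, the group mean as a bar and the SD as an error bar. The points of the groups overlap in all 10 panels, and the Normal Saline point at 135 CPM for Ces1b stands alone.

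Of the other 10 carboxylesterase genes, 5 passed the filter and 0 of the 5 passed an adjusted or an unadjusted p of 0.05. Ces2c, which encodes an acylcarnitine hydrolase, had 23.7, 58.1, 75.7 and 28.8 CPM with Normal Saline and 63.1, 63.2, 37.5 and 20.9 CPM with 4-HPAA. It was the most variable family gene above 10 CPM, with a log2 fold change of -0.01 (SE 0.42). Ces2b had the largest estimate of the family, 0.64 (SE 0.48), at 0.513 to 2.13 CPM in a liver. Ces2f was counted only on a transcript annotated for nonsense-mediated decay, while both of its protein coding transcripts were listed at 0 in all 8 livers. Ces2g had 29.8 to 48.4 CPM and Ces4a had 1.15 to 3.12 CPM. Ces1a, Ces1h, Ces2d-ps, Ces2h and Ces5a did not pass the filter, with 3 to 76 estimated counts summed over all 8 livers.

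The members followed no common course from liver to liver. Over the 8 livers, Pearson's r of log2 CPM between pairs of members ranged from -0.85 to 0.89 with a median of -0.07 (45 pairs). These correlations share libraries and are given as a description. Pairs within a gene cluster had a median r of 0.19 (21 pairs), and pairs across the clusters had a median r of -0.16 (24 pairs). The closest pair was Ces3a and Ces3b (r = 0.89, Spearman's rho = 0.83), whose transcripts share the most words, and r was 0.89 again without the 2 livers farthest from the median. Ces1b and Ces1c, the next pair by shared words, had r = 0.40.

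Ces1e ran against the Ces3 genes. Its r was -0.85 with Ces3a and -0.81 with Ces3b, and -0.68 and -0.49 without the 2 livers farthest from the median. Ces1e was highest in Normal Saline replicates 1 and 4 and 4-HPAA replicate 4, at 154 to 170 CPM, and these are the livers that were lowest for Ces3a. In the same 3 livers the summed CPM of 12 Kupffer cell and leukocyte markers was 124, 102 and 94.4, against 148 to 317 in the other livers. None of the 12 markers was at 0 in all livers, and 10 of them passed the filter. Clec4f, Cd5l and Csf1r made up most of the sum, and the markers at low levels did not all follow it. S100a8 was highest in 4-HPAA replicate 4 (0.560 CPM). S100a9 had 0.790 CPM in Normal Saline replicate 4, in a range of 0.324 to 0.858 CPM over all livers. The summed CPM of 8 hepatocyte markers was 127582, 138326 and 138969 in the same 3 livers, against 109606 to 124570 in the others. Alb made up most of that sum, and the markers did not move as one. Cyp2e1 had 4420 CPM in Normal Saline replicate 4 and 5421 CPM in 4-HPAA replicate 4, against 6324 to 7233 CPM in the other livers, and Serpina1c was lowest in the same livers (6266 and 6333 CPM). The part of these markers in the pattern was not tested.

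**Figure D4:**
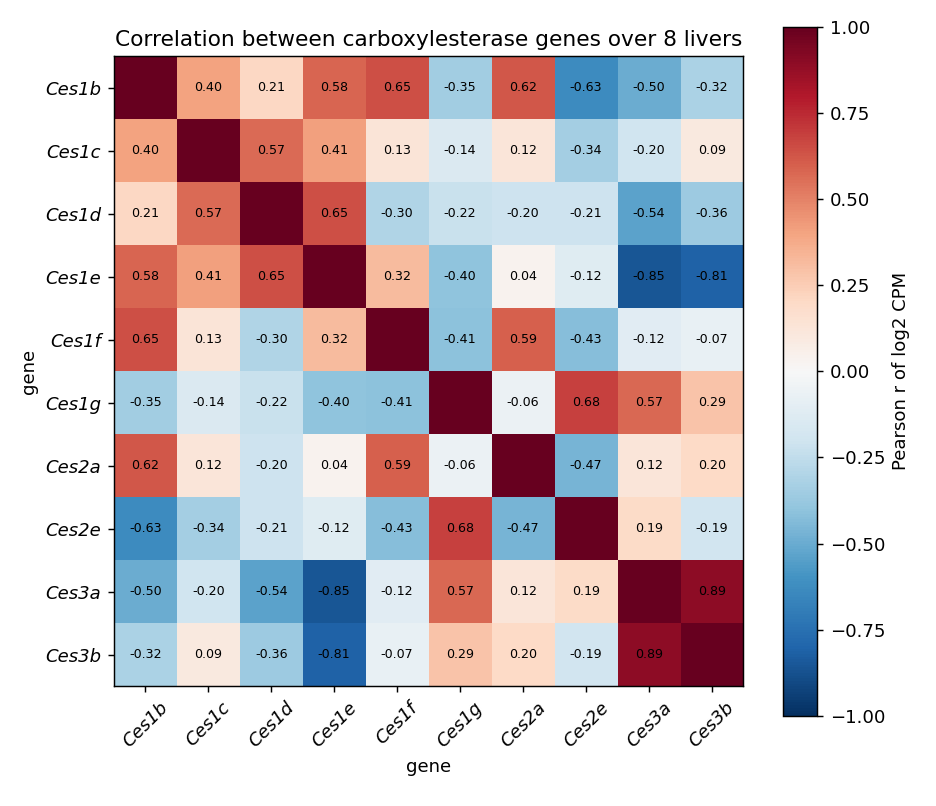
Pearson's r of log2 CPM over the 8 livers for each pair of the 10 members (both axes), from blue (negative) to red (positive), with the value printed in each cell. Ces3a and Ces3b stand out at 0.89, and Ces1e has its lowest values with the same genes at -0.85 and -0.81.

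Ces2a resembled some of the genes of drug metabolism, a likeness singled out after its values were seen. Its r with the summed CPM of 10 target genes of the xenobiotic receptors PXR and CAR was 0.97 over the 8 livers (Spearman's rho = 0.81), and 0.95 without the 2 livers farthest from the median. Over the 8 livers the same r lay between -0.48 and 0.60 for the other 9 members. Without those 2 livers it lay between -0.93 (Ces3a) and 0.92 (Ces1e), with 0.91 for Ces1b. The contrast between Ces2a and the other members thus rested on those livers. The sum was made up mostly of Cyp3a11, the main drug-oxidising cytochrome P450 of mouse liver, which had 2730, 3096, 3187 and 3910 CPM with Normal Saline and 4258, 3418, 3334 and 4337 CPM with 4-HPAA. Ces2a had r = 0.94 with Cyp3a11, 0.90 with Gsta2, 0.71 with Cyp2c55 and 0.67 with Gstm1. With the other target genes that passed the filter its r was 0.30 for Cyp3a25, 0.00 for Cyp2c29, -0.26 for Cyp2c37 and -0.53 for Cyp2b10. Part of this likeness was shared by Ces1b and Ces1f, which had r = 0.84 and 0.70 with Gsta2 and 0.86 and 0.83 with Gstm1. Ces1f also had r = 0.69 with Cyp2c55. For Cyp3a11 the next highest member was Ces1b, with r = 0.60. Other members had values as far from 0 with target genes that Ces2a did not follow. With Cyp2c29, r was -0.98 for Ces1e, 0.85 for Ces3a and 0.82 for Ces3b. Ces1d had r = 0.81 with Cyp2b10, and Ces1g had r = 0.77 with Cyp2c37. Of the 8 target genes that passed the filter, 5 were higher and 3 lower with 4-HPAA and 0 were called.

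Apart from the members, 7374 genes were searched over the 8 livers for likeness of log2 CPM to the members' summed CPM. The 4 highest were Tmem161a (r = 0.93), Cfb (r = 0.91), Gga1 (r = 0.90) and Ggnbp1 (r = 0.89). As the top values of a wide search over few livers, they were not tested. Their differences among livers were small, as Cfb had 1018 to 1232 CPM and Gga1 22.3 to 28.4 CPM. The members' sum itself lay between 6587 and 7758 CPM.

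Upstream sequence was at hand for 7 of the 10 members (RefSeq, GRCm38.p6), and 3 are shown because they bear on the pairs above (Ces1b has 2 entries, of which the more alike to Ces1c is given). Each line gives the 250 bases before an annotated start, 5′ to 3′ on the strand of the gene, with TATAAA on that strand and GTTAAT or AGGTCA on either strand in capitals.
Ces1b (chr8:93079941-93080190, minus strand): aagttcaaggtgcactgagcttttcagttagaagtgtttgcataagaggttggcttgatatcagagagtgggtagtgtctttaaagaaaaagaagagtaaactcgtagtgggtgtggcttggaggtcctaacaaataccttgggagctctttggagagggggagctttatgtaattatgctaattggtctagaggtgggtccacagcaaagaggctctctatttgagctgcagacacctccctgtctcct
Ces1c (chr8:93131284-93131533, minus strand): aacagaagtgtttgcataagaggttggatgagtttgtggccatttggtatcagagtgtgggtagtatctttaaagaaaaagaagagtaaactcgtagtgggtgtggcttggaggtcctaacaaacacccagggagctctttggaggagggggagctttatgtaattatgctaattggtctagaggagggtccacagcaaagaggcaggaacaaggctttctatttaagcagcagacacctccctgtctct
Ces3b (chr8:105083505-105083754, plus strand): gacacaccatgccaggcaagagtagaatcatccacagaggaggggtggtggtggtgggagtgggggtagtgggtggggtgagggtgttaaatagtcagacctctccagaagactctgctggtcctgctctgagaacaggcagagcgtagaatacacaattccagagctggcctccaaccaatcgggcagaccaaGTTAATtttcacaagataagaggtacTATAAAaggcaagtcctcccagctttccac

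Ces1b and Ces1c were 76.2% identical over this stretch when aligned, and none of the 3 motifs occurred in them. The other pairs of different members were 42.6% to 53.7% identical. The measure counts unmatched ends as differences, so it depends on where the annotated start lies. By it, both entries of Ces1b, which overlap in the genome, were 52.9% identical to each other. The Ces1b entry that is not shown was 43.1% identical to Ces1c. Ces3b held TATAAA starting 30 bases before the start and GTTAAT, the core of many HNF1 sites, 56 bases before it. Of 32851 RefSeq promoters of 300 bases, 8.32% held TATAAA, 7.10% held GTTAAT and 16.3% held AGGTCA. Ces2a held AGGTCA, a motif of nuclear receptors, 226 bases before its start.

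The members were also compared by transcript. They had 33 annotated transcripts in the data, 17 protein coding and 16 of other types such as retained introns. Of these, 31 passed the filter and were tested among 25533 transcripts. After adjustment, 0 of the 31 passed 0.05 in edgeR, beside 0 of all transcripts (0%), while DESeq2 called 0 of the 31 and 19 in all. At an unadjusted p under 0.05, edgeR and DESeq2 each counted 1 member transcript, beside 979 transcripts (3.83%) in edgeR. The transcript was a retained-intron form of Ces1d of 574 bases (ENSMUST00000148340), named here after its value was seen. It had 366, 204, 364 and 371 estimated counts with Normal Saline and 260, 167, 203 and 164 with 4-HPAA (log2 fold change -0.68, SE 0.22, edgeR adjusted p = 1.00). Its groups overlapped, since Normal Saline replicate 2 lay within the 4-HPAA values. In 0 of the 31 did the groups lie apart, against 537 transcripts (2.1%).

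Most reads of a member fell on its coding transcripts, and the small remainder varied more than the gene did. In some members the remainder rested on few estimated counts, 29.4 to 79.4 in a liver for Ces2a. Its division from the coding transcripts of the same gene is an estimate. The part of counting and assignment in its spread was not tested. For Ces3b, transcripts of other types held 2.59%, 6.94%, 5.96% and 2.66% of the gene's estimated counts with Normal Saline and 4.67%, 4.04%, 7.02% and 2.04% with 4-HPAA. The share differed 3.44-fold between livers and was low in Normal Saline replicates 1 and 4 and 4-HPAA replicate 4. For Ces3a the share was 2.79%, 5.01%, 4.35% and 3.45% with Normal Saline and 4.06%, 3.74%, 6.42% and 2.79% with 4-HPAA. A retained-intron transcript of Ces3b (ENSMUST00000173838) had 353, 1305, 1039 and 394 estimated counts against 817, 595, 1324 and 274, and its log2 fold change was -0.03 (SE 0.51). For Ces1d the share averaged 2.51% ± 0.413 in Normal Saline livers and 1.87% ± 0.594 in 4-HPAA livers (SD, n = 4), with overlapping values.

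**Figure D5:**
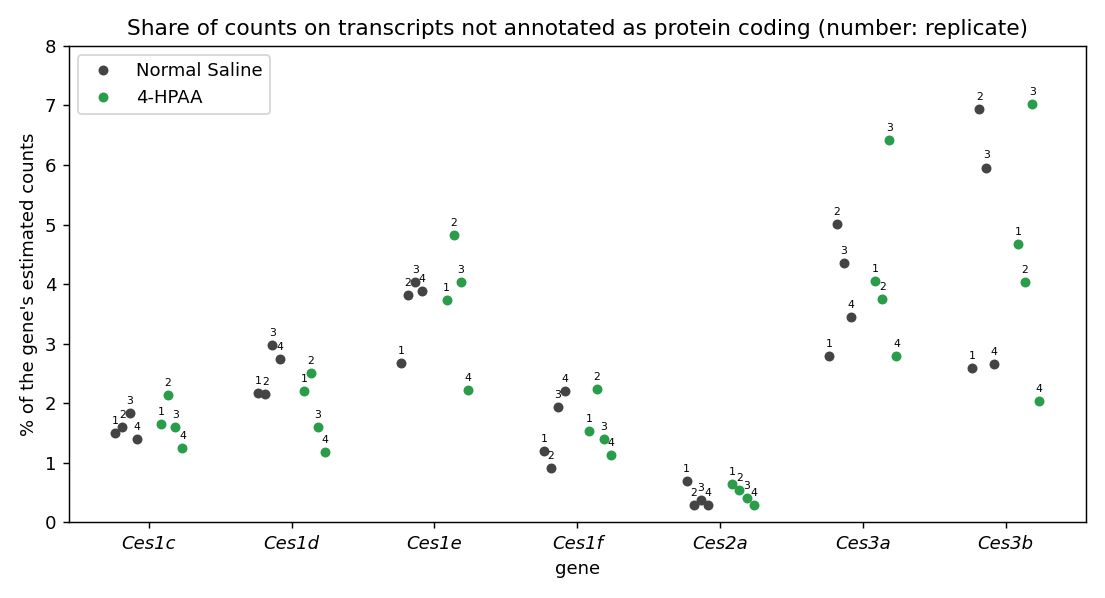
Share of each gene's estimated counts that fell on transcripts not annotated as protein coding (vertical axis, percent), for the 7 members that have such transcripts, with a numbered point per replicate of both infusions. Ces3b spreads from 2.04% to 7.02%, with replicates of both groups at either end.

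Both Ces3 genes had a second coding transcript with a shorter coding sequence, by 141 bases in Ces3a and 150 bases in Ces3b. It held 13.2% to 15.5% of the coding counts of Ces3a. In Ces3b it held 19.7% to 27.7%, with the lowest values again in Normal Saline replicates 1 and 4 and 4-HPAA replicate 4 (20.7%, 20.1% and 19.7%). For Ces1e, a transcript whose coding sequence differs in length by 3 bases held 23.1% ± 2.14 of the coding counts in Normal Saline livers and 26.9% ± 2.05 in 4-HPAA livers (SD, n = 4). The values overlapped, and neither of the Ces1e coding transcripts passed the test, with log2 fold changes of -0.10 (SE 0.13) and 0.19 (SE 0.11).

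Genes that act beside the carboxylesterases were not called either. In a list of 20 genes, made up of 19 other liver esterases and hydrolases and of Fabp1, which encodes a fatty acid binding protein, 9 were higher and 11 lower with 4-HPAA, with a median log2 fold change of -0.01. Aadac, a microsomal lipase that also deacetylates drugs, had a log2 fold change of 0.03 (SE 0.10), Ephx1 (microsomal epoxide hydrolase) -0.01 (SE 0.17), Pon1 (the paraoxonase of plasma lipoproteins) -0.08 (SE 0.12), Lipc (hepatic lipase) -0.06 (SE 0.14) and Bche (butyrylcholinesterase) -0.03 (SE 0.10). Of 20 genes of triglyceride storage and secretion, 18 were tested, of which 14 were higher and 4 lower, with a median of 0.04. Among them Pnpla2 (adipose triglyceride lipase) had 0.00 (SE 0.12), Mttp, which loads lipid onto apolipoprotein B, 0.09 (SE 0.094) and Dgat2, which makes triglyceride, 0.02 (SE 0.083). Of 14 transcriptional regulators of these genes, 5 were higher and 9 lower, with a median of -0.02, and Hnf4a had 0.03 (SE 0.10), the PXR gene Nr1i2 0.06 (SE 0.15), the CAR gene Nr1i3 -0.10 (SE 0.17) and Ppara 0.14 (SE 0.14). In all 3 lists 0 genes passed an adjusted p of 0.05 in edgeR and 0 passed it unadjusted.

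The libraries held 29559978 to 30673398 estimated counts. The 10 members had between 2418 and 88842 counts in a library, so counting error was small beside the spread of mice. The 8 hepatocyte markers were high in every liver, and the 5 lung and kidney epithelium markers summed to under 0.070 CPM. Red blood cell markers ranged from 152 to 2560 CPM, with the highest sum in Normal Saline replicate 2, and 0 of their 5 genes were called. Pancreas and intestine markers summed to between 56.4 and 76.7 CPM, nearly all of it from Fabp2 (43.6 to 66.2 CPM) and Cela1 (7.83 to 14.2 CPM), while Pnlip, Amy2b, Reg3b and Lypd8 were at 0 in every liver. Adipocyte markers summed to between 12.2 and 32.7 CPM, nearly all of it from Plin4 (11.8 to 32.5 CPM), with Lep at 0 in every liver and Adipoq at no more than 0.066 CPM.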

How the data were processed

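RNA from 8 livers, 4 after Normal Saline and 4 after 4-HPAA infusion, was sequenced as 8 libraries (paired-end reads of 100 bp, directional mRNA kit). The authors checked reads with FastQC 0.11.9, pseudo-aligned them with kallisto to GRCm38.p6 transcripts and deposited estimated counts per transcript, not normalized and not pooled. Of 119414 transcripts, 116728 were matched to 35975 genes of GENCODE M21, and 2686, holding 0.703% to 1.06% of a library, were not used. Estimated counts were summed per gene and rounded. The test was run on genes reaching 10 counts in all libraries, with edgeR 4.0.16 in R 4.3.3 (quasi-likelihood F test, TMM, Benjamini-Hochberg adjustment, threshold 0.05), and transcripts likewise. Standard errors were taken as the absolute log2 fold change over the root of the F statistic. Correlations used log2 CPM with a prior count of 2. DESeq2 1.42.0, limma-voom (limma 3.58.1), other normalizations and filters, a replicate block and left-out libraries were the alternatives. The fits were tested on simulated data.

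Named genes were the 10 members, other carboxylesterase genes, a fixed list of 12 hydrolases and regulators, and the 5 genes most like the members' sum, 1 of which is not reported here. The members, lists and tests were chosen with earlier results of these data known. The labels number libraries 1 to 4 in each group, and p-values measure the spread between these samples. Kallisto shares reads among near-identical copies, and the release of its transcript index may differ from the annotation used here. Protein sequences were not used here.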

Additional observations from a re-analysis of the deposited data

Results flagged for a closer look

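In 4 of 56 groups of 4 livers examined, 1 liver lay far from the other 3 for a named gene, its gap to the nearest, as a share of the whole range, being above Dixon's 95% critical value. Chance alone flags about 1 in 20 groups. For Ces1b, Normal Saline replicate 4 had 135 CPM against 84.9 to 90.4 CPM in the other 3 (gap 0.892 of the range). For Ces4a, 4-HPAA replicate 4 had 1.15 CPM against 2.40 to 2.62 CPM (gap 0.851). For Aadac, Normal Saline replicate 4 had 447 CPM against 396 to 403 CPM (gap 0.857). For Pon1, 4-HPAA replicate 4 had 445 CPM against 573 to 594 CPM (gap 0.855). Normal Saline replicate 4 and 4-HPAA replicate 4 each stood apart for 2 genes. Both had low summed Kupffer cell and leukocyte markers (102 and 94.4 CPM), mostly from Clec4f, Cd5l and Csf1r. Their part in these values was not tested.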

How the results depend on the processing

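No alternative called a member, at the gene or the transcript level. The 15 alternatives for genes were DESeq2, limma-voom, RLE normalization, total counts only, no filter, a filter of 10 summed counts, the replicate number as a block and each of 8 libraries left out. The 10 members' log2 fold changes were recomputed 150 times, stayed within 0.22 of 0, and had a smallest adjusted p of 0.999, while 25 of the 150 changed sign, with Ces1c and Ces2a the 2 members that kept theirs in every alternative. DESeq2 called 2 genes and 19 transcripts in place of 0, and edgeR without single libraries called 0 to 1 genes and 0 to 1 transcripts, the 1 in each case without 4-HPAA replicate 1. Members above 0 numbered 2 to 5 without single libraries, with 5 without Normal Saline replicate 3, 4-HPAA replicate 3 or 4-HPAA replicate 4. With the replicate block 0 genes, 0 transcripts and 0 members were called, and the smallest p of a member was 0.25. Same-numbered libraries had correlations of deviations between 0.040 and 0.48, with 3 of 4 above 0.1, and 4 of 8 libraries correlated best with their own number. These values do not settle whether the numbers mark pairs. The numbers were not taken as pairs because the labels state no pairing. Log2 fold changes of the opposite sign were found with DESeq2 (Ces3a 0.0010, Pnpla2 0.0009), edgeR with replicate block (Ces3a 0.0078, Ces2c 0.0001, Pnpla2 0.0029, Ephx1 0.0016), limma-voom (Ces3a 0.0079, Ces2c 0.013, Pnpla2 0.0036, Ephx1 0.0035), RLE normalization (Ces3a 0.0010, Pnpla2 0.0009), a filter of 10 summed counts (Ces3a 0.0029, Pnpla2 0.0039), no filter (Ces3a 0.0028, Pnpla2 0.0038). Over the left-out libraries, the log2 fold changes that changed sign ran as follows: Ces1d -0.098 to 0.056, Ces1e -0.12 to 0.038, Ces2g -0.15 to 0.083, Pnpla2 -0.087 to 0.080, Lipc -0.17 to 0.022, Ces3a -0.074 to 0.066, Ces3b -0.12 to 0.058, Ces2c -0.23 to 0.32, Ces4a -0.18 to 0.19, Ephx1 -0.14 to 0.076, Nr1i2 -0.046 to 0.16, Ces1g -0.15 to 0.11, Dgat2 -0.020 to 0.048, Ces1b -0.22 to 0.063, Ces2e -0.083 to 0.10, Bche -0.12 to 0.034, Hnf4a -0.050 to 0.085, Ces1f -0.12 to 0.0096, Aadac -0.052 to 0.097, Pon1 -0.16 to 0.0012, Nr1i3 -0.24 to 0.061. In the main edgeR fit, not in the alternatives, the highest upper bound of a member's 95% interval was 1.30-fold.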

Other observations

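Markers of liver cell types that were not compared above gave these values. Of 7 endothelial cell markers, 7 were higher with 4-HPAA, with a median log2 fold change of 0.06, 0 called and 0 at an unadjusted p under 0.05, and their summed CPM ranged from 131 to 187 with Normal Saline and from 121 to 217 with 4-HPAA. These markers did not move as one. Lyve1 was highest in Normal Saline replicate 1 and 4-HPAA replicate 4 (17.1 and 15.5 CPM), while Stab2 was lowest in 4-HPAA replicate 4 (24.8 CPM). The members' values of r with the endothelial sum that lay farthest from 0 were picked after they were seen. Over the 8 livers Ces2e and Ces1g had r of 0.81 and 0.77, and Ces1f and Ces1b had -0.82 and -0.75. Without the 2 livers farthest from the median the values were 0.74 for Ces2e, 0.52 for Ces1g, -0.51 for Ces1f and -0.05 for Ces1b, so the value of Ces1b rested on those livers. Of 7 stellate cell and fibroblast markers, 5 were higher and 2 lower, and their sum ranged from 117 to 212 CPM over the 8 livers. With that sum Ces1f had r of -0.91, Ces1b -0.80 and Ces2e 0.68. Without the 2 livers farthest from the median the values were -0.94 for Ces1f, -0.03 for Ces1b and 0.17 for Ces2e. Of 5 cholangiocyte markers, 4 were tested, 2 higher and 2 lower. Of 9 acute phase genes, which hepatocytes secrete in inflammation, all 9 were lower with 4-HPAA, with a median of -0.11, 0 called and 0 at an unadjusted p under 0.05. Their summed CPM overlapped, from 9830 to 12420 with Normal Saline and from 10133 to 12300 with 4-HPAA. Among the lists named above, 9 of the 10 tested Kupffer cell and leukocyte markers were lower and 1 higher (median -0.11). All 5 red blood cell markers were lower (median -1.89), with the highest sum in Normal Saline replicate 2. In both lists 0 were called and 0 had an unadjusted p under 0.05. Of 13 clock output genes, 12 were tested, 6 higher and 6 lower, and their sum had r of 0.69 with Ces1g and 0.77 with Ces2g, which were 0.46 and 0.29 without the 2 livers farthest from the median. The sum of 4 Y-linked genes lay between 152 and 180 CPM in all 8 livers.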
